A study of Mus musculus with 6 samples.

Results

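Serpins are a large family of proteins that share 1 fold, and most of them inhibit serine proteases. An inhibitory serpin offers an exposed loop as bait, is cleaved by the protease, and traps it in a covalent complex that cannot be released. Some members have lost this activity and serve as chaperones, hormone carriers or extracellular signals. The family is divided into clades, of which A holds many plasma proteins made in liver and B holds intracellular inhibitors. Here the family was taken as every gene of the deposited table whose symbol begins with Serpin and a clade letter from a to i. The 40 genes described come from a table of 19078, and in 18 of them the mean reached 10 normalized counts or more.

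The cells were immortalized mouse fibroblasts. In 3 libraries, labelled Ms4a15 OE, the membrane protein gene Ms4a15 was overexpressed by CRISPR activation in a pool of cells that received an Ms4a15 guide by lentivirus. The other 3 libraries, labelled control, came per the study's methods from cells with an empty lentivirus, and the labels give their genotype as wild type. Both groups carried the activation system and a conditional Gpx4 allele. Poly(A) RNA was sequenced, and nothing in the sources used here says that the replicates were separate cultures.

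Every level below is the authors' mean, a single pooled value per gene over all 6 libraries, with no SD and no value per group. A level therefore does not say how Ms4a15 OE and control cells compared, and no test between them was made. The values are read counts divided by a size factor for each library. Ms4a15 itself had a pooled mean of 637.5, which cannot check the labels of single libraries. Ratios between the levels of different genes are given only after division by the length of their exons, as mean per kilobase; orders and shares of summed means are not corrected for length.

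Fibroblast markers were present. Of 11 fibroblast genes, 10 had a mean of at least 10, with Col1a2 at 135155 normalized counts, Vim at 115135 and Fn1 at 114243. The exception was Lum at 0.675, and Dcn was low at 12.1. Of 5 hepatocyte genes with a value, Apoa2 alone reached 10, at 23.5, and Alb had a mean of 0.163. Among 8 epithelial genes 3 reached 10, led by Krt14 at 170, while Epcam stood at 0.176. Among 6 myeloid and lymphoid genes 5 reached 10, with Lyz2 at 534 and Ptprc at 11.1. Of 4 endothelial genes 2 reached 10, Cdh5 at 106.5 and Pecam1 at 15.9. Of 2 neuronal genes Tubb3 had 2463 and Syt1 had 3.43, and the 2 germ line genes, Dazl and Ddx4, were both under 1. The part of other cells in any serpin level was not tested.

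Among the 40 genes described, 3 held most of the RNA. Serpinh1, Serpinf1 and Serpinb6a together held 96.4% of the summed mean of these 40, and the other 37 genes held 3.57%. The next mean, that of Serpinb9, was 938, against 14694 for Serpinb6a. The mean reached 10 normalized counts in 45.0% of the serpin genes described and in 67.7% of all genes in the table. The median over the 40 genes was 4.56 per kilobase, beside 107 over the 16548 genes with an annotated length.

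**Figure D1:**
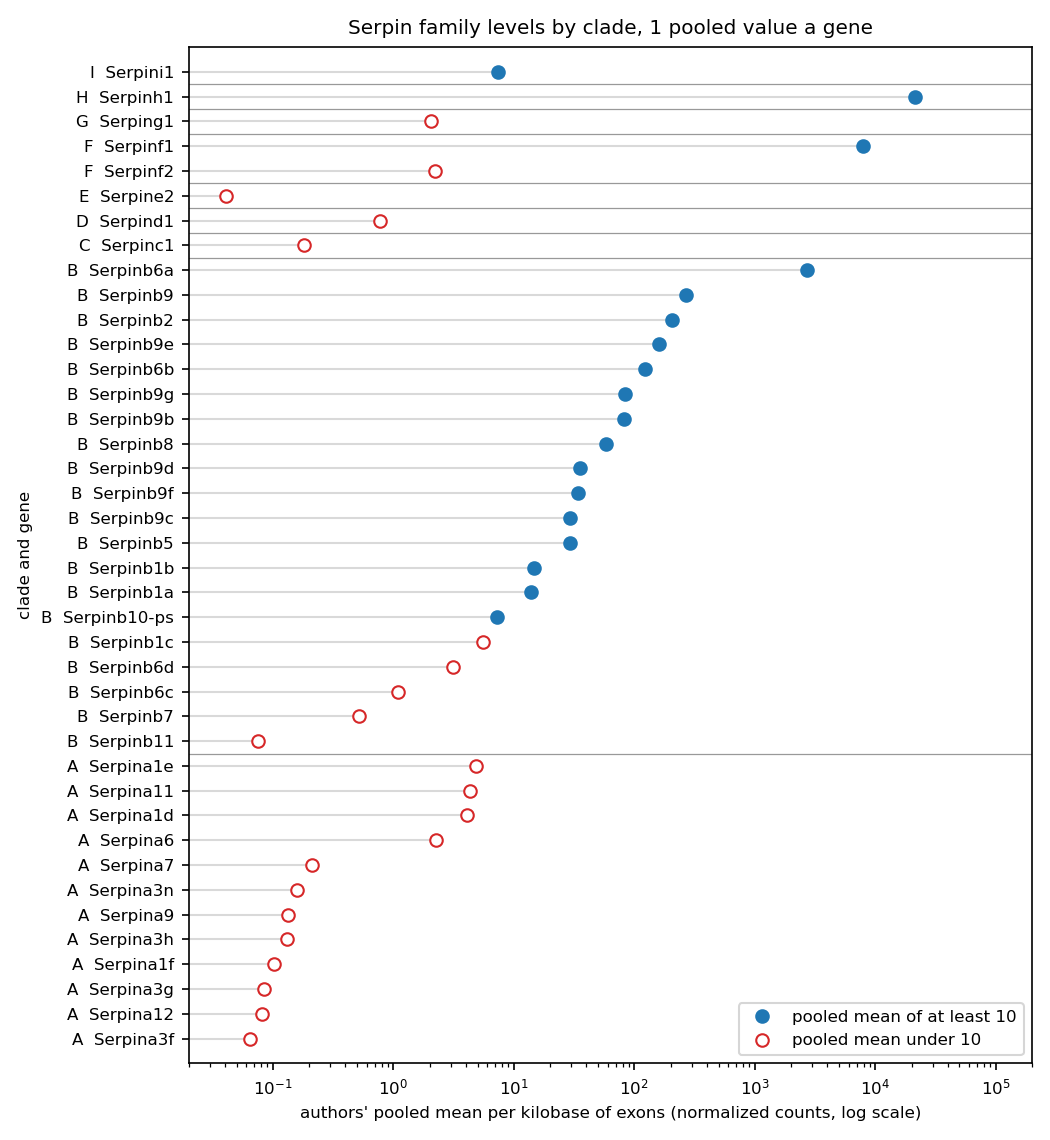
Pooled mean per kilobase of exons, on a log axis, for 40 serpin genes grouped by clade. Filled points mark the 18 genes that reached a mean of 10 and open points the other 22; Serpinh1, Serpinf1 and Serpinb6a stand highest and clade A has no filled point.

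In clade E, Serpine2 encodes protease nexin, an inhibitor of thrombin and urokinase that is bound at cell surfaces. It had a mean of 0.339, which amounts to 2 reads over all 6 libraries.

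Clade H consists of Serpinh1, the collagen chaperone HSP47 of the endoplasmic reticulum, which does not inhibit proteases. Its mean was 51954 normalized counts and its level per kilobase 21266. It lies on mouse chromosome 7 from 99345376 to 99353239 (GRCm38). In clade F, Serpinf1, the secreted anti-angiogenic factor PEDF, had a mean of 18674 and 7916 per kilobase, 2.69 times below Serpinh1. Serpinf2, the antiplasmin of blood, lies beside it on chromosome 11 and had a mean of 5.17. Clade I was represented by Serpini1, the neuroserpin of the nervous system, at 54.2 normalized counts and 7.44 per kilobase.

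Clade B was the widest by genes with a value, 20 of 28 annotated, beside 12 of 29 annotated in clade A. Of its 20 genes with a value 15 had a mean of at least 10, against none of those 12 in clade A, and its summed mean was 17762. Serpinb6a, an intracellular inhibitor of cathepsin G, supplied most of that sum with 14694 normalized counts. Its level per kilobase was 2717 over the exons of its 17 annotated transcripts and 6707 over the longest transcript. Serpinb9, the inhibitor of granzyme B, followed with 938 normalized counts. Serpinb2, an inhibitor of urokinase found mostly inside cells, had a mean of 479.8, and Serpinb8 had 279. Serpinb5, the non-inhibitory serpin maspin known from epithelia, had 79.98. Serpinb1a, an inhibitor of neutrophil elastase, and its close copy Serpinb1b had 31.8 and 28.4. Serpinb10-ps, listed under an older symbol of Serpinb10 and annotated as a polymorphic pseudogene, had the lowest mean of the members that reached 10, at 25.5.

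Clade B genes lie in 2 clusters. On chromosome 13, between 32842092 and 34002794, 16 genes are annotated under a serpin name, 14 had a value and 11 of these reached 10. Levels of neighbours there differed widely. Serpinb6c, whose annotated end lies 12.2 kb from Serpinb6a, had a mean of 1.53, or 9 reads in all, and 1.10 per kilobase over all exons or 1.15 over its longest transcript, beside 2717 and 6707 for Serpinb6a. Between Serpinb9g and Serpinb6d the level per kilobase dropped from 84.2 to 3.13. On chromosome 1, between 106861173 and 107610484, 12 are annotated and 6 had a value. Serpinb2 stood at 204 per kilobase, while its neighbours Serpinb7 and Serpinb10-ps were at 0.520 and 7.30. Serpinb2 and Serpinb10-ps overlap in the annotation and share 176 stretches of 100 bases, and those bases do not tell the genes apart. The other 6 annotated genes of that cluster were not analysed here.

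**Figure D2:**
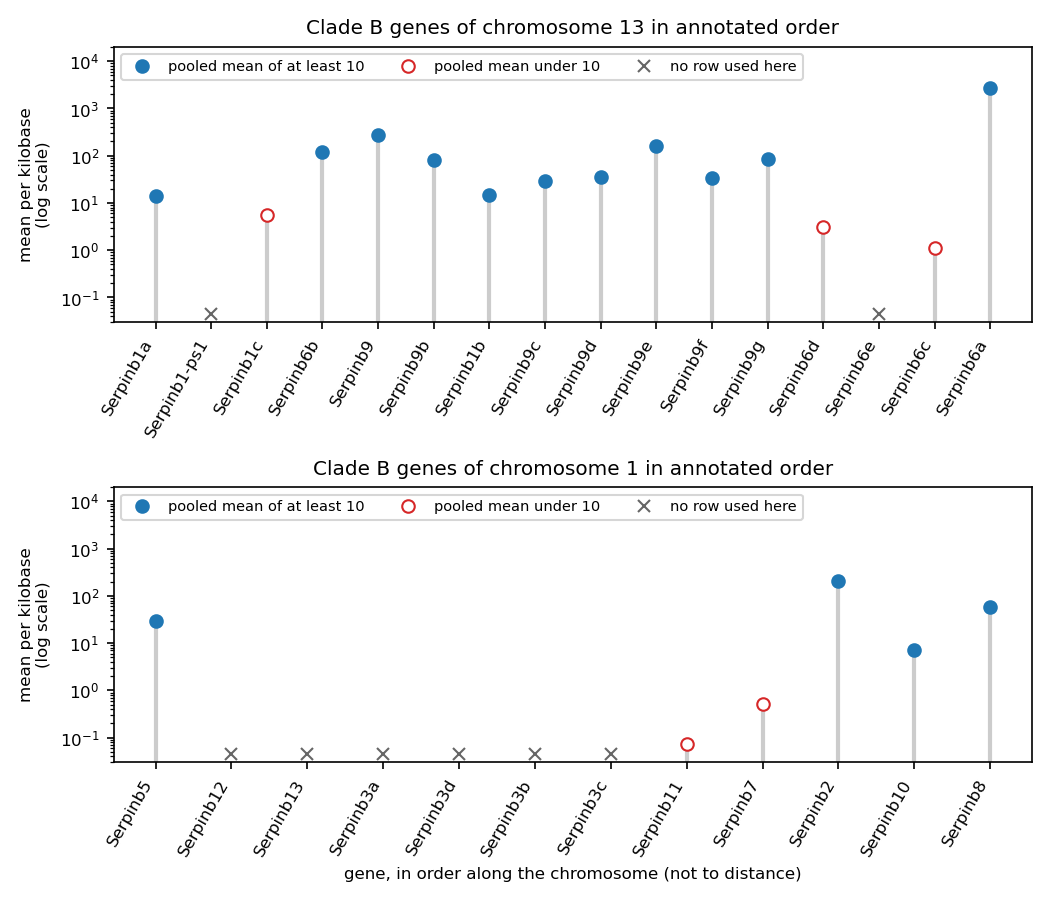
Pooled mean per kilobase, on a log axis, for clade B genes in their order along chromosome 13 (upper) and chromosome 1 (lower). Filled points have a mean of at least 10, open points lie below it, and crosses are annotated genes with no value used here; Serpinb6a rises above its neighbour Serpinb6c at the end of the upper row.

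The genes Serpinb9 and Serpinb9b to Serpinb9g all had a mean of at least 10. Gm11397, an annotated gene that shares stretches with some of them, has no value and is not counted in what follows. Serpinb9 held 50.7% of their summed mean of 1851. Serpinb9e had 308 normalized counts, Serpinb9b 275, Serpinb9g 162, Serpinb9f 64.7, Serpinb9c 58.2 and Serpinb9d 44.3. Serpinb6b, a relative of Serpinb6a that lies beside Serpinb9, had 276. Per kilobase the 7 genes spanned 29.1 to 269, a ratio of 9.23. Serpinb9g and Serpinb9f had the most alike coding sequences of the 20 clade B genes, with 98.7% of 1131 bases identical and a longest shared run of 316 bases.

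The 4 copies Serpinb9d to Serpinb9g have coding sequences of equal length, and they differed at 95 of 1131 positions. Gm11397 was not part of this comparison. The 150 coding bases at which the 4 differed most, coding positions 940 to 1089, lie in exon 7 of 7 and held 27 of these. They are shown with every base that differs from Serpinb9g in capitals. On the plus strand of chromosome 13 (GRCm38) they lie at chr13:33495088-33495237 for Serpinb9g, chr13:33334458-33334607 for Serpinb9f, chr13:33259938-33260087 for Serpinb9e and chr13:33202890-33203039 for Serpinb9d.
Serpinb9g: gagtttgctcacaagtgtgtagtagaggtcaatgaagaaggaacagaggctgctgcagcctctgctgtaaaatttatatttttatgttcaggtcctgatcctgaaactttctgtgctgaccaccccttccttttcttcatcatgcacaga
Serpinb9f: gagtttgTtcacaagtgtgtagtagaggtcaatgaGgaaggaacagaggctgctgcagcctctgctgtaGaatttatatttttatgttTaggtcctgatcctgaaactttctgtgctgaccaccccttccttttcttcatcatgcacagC
Serpinb9e: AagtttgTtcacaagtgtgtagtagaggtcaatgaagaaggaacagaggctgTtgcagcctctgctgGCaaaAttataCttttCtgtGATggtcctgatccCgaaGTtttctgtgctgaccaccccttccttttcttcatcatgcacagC
Serpinb9d: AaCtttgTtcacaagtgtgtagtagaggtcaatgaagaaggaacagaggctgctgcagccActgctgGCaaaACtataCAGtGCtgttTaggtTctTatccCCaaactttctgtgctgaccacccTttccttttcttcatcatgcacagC
In this stretch Serpinb9f differed from Serpinb9g at 5 bases, Serpinb9e at 15 and Serpinb9d at 20.

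Likeness between copies limits how far their counts can be told apart. The share of each gene's distinct stretches of 100 bases that also occur in transcripts of another gene, on either strand, was 52.3% for Serpinb9f and 38.5% for Serpinb9g. The study's methods give read lengths of 100 bases and the labels 150, paired-end in both, so these shares of single stretches are not shares of read pairs. For stretches of 150 bases these shares were 38.6% and 30.9%. Most of these lie in the annotated gene Gm11397, which shared 798 stretches with Serpinb9f and 622 with Serpinb9g. At 100 bases the share was 15.9% for Serpinb9c, 10.1% for Serpinb9e and 7.21% for Serpinb9d, and at 150 bases 13.6%, 2.03% and 1.18%. Serpinb6a shared 19.9% at 100 bases and 16.0% at 150, all of it with the overlapping genes Nqo2, 1110046J04Rik and Ripk1 on the other strand; the labels describe the libraries as strand-specific, and whether counting used the strand was not tested. Of the 18 members with a mean of at least 10, 8 shared none, among them Serpinh1, Serpinf1 and Serpinb9. Of the 22 lower members 4 shared over 10% at 100 bases, Serpina11 with 32.8%, Serpinc1 with 32.2%, Serpina1d with 29.3% and Serpina1e with 14.4%. All of the Serpina11 share was with Gm28577, which overlaps it on the same strand. All of the Serpinc1 share was with Zbtb37, which overlaps it on the other strand. Whether shared sequence changed any level was not tested, and the levels of all members that share stretches are uncertain for this reason.

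**Figure D3:**
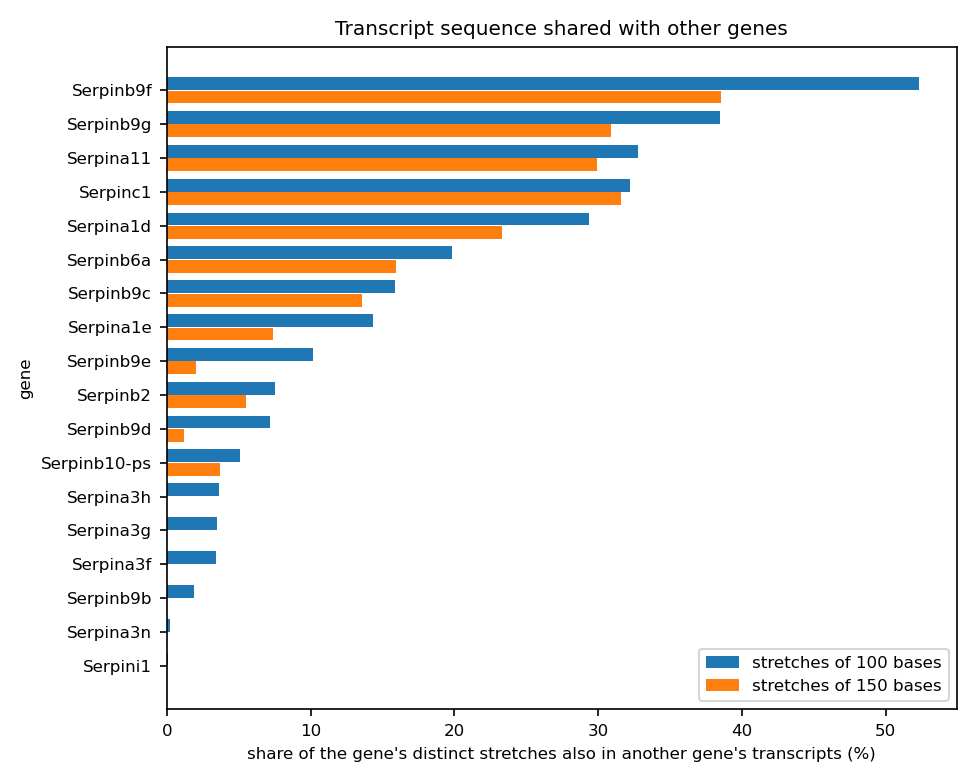
Share of each gene's distinct transcript stretches of 100 bases (upper bar) and 150 bases (lower bar) that also occur in transcripts of another gene, for the 18 serpins with any shared stretch of 100 bases. Serpinb9f is highest at 52.3%.

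Of the 12 clade A genes with a value none reached 10 normalized counts, and 8 were under 1. Another 17 annotated clade A genes had no value. Their summed mean was 26.97. Agt, a clade A gene also known as Serpina8, is not among them, since its symbol does not follow the rule, and had a mean of 20.3. Of the 12, the highest were Serpina1e at 7.79 and Serpina1d at 5.68, copies of the plasma elastase inhibitor antitrypsin, with Serpina11 between them at 7.06. Serpina6, the carrier of corticosteroids, had a mean of 3.97, and Serpina7, the carrier of thyroxine, had 0.518. Serpina9 had 0.491, and the 6 genes Serpina3f, Serpina3g, Serpina3h, Serpina3n, Serpina12 and Serpina1f lay between 0.147 and 0.326. The coding sequences of Serpina1e and Serpina1d were 96.3% identical; Serpina1a, Serpina1b and Serpina1c, which share stretches with both, have no value and were not aligned. The single genes of clades C, D and G encode antithrombin, heparin cofactor and the inhibitor of complement protease C1s. Serpinc1 had a mean of 1.55, Serpind1 1.71 and Serping1 4.74.

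For low genes the pooled mean still holds the whole reads of single libraries. A gene with 1 read in 1 library has a mean set by that library's size factor alone, and 6 such values recurred 149 to 242 times each. They gave size factors of 0.887, 0.938, 0.946, 1.02, 1.11 and 1.14, for libraries given the letters A to F in that order. As sequencing was paired-end, a whole read here may stand for a counted pair. These libraries carry no label, and none was assigned to Ms4a15 OE or control. For all 22 serpins under 10, a single combination of whole reads gave the printed mean to its last digit, as it did for 6137 of 6164 genes under 10. The 22 genes had from 1 read in all, for Serpina3f, Serpina3g, Serpina3h and Serpinb11, to 57 reads for Serpinb1c.

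Some of these genes had reads in every library. Serpina6 had 24 reads, between 3 and 6 a library with a median of 3.5. Serpinf2 had 31, between 3 and 8 with a median of 4.5, and Serpina1e had 46, between 5 and 10 with a median of 7.5. Serpinb1c had 57 reads, between 4 and 19 with a median of 7.5. For Serpina6 and Serpinb1c a second combination fits when the tolerance is 10 times wider, so their reads are less certain than those of the other 20 genes. Others were found in few libraries. Serpine2 had 1 read in library C and 1 in library D, and Serpina1f had both of its reads in library D. The libraries were not compared, since they carry no label.

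**Figure D4:**
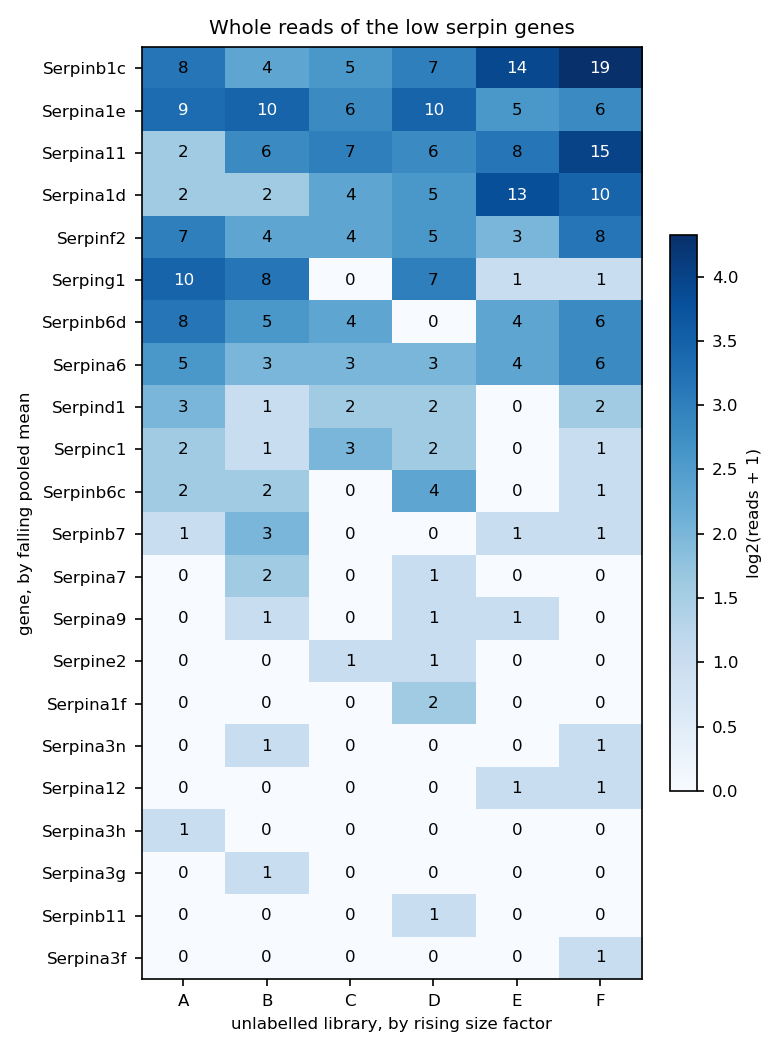
Whole reads of the 22 serpins with a mean under 10 (rows, by falling mean) in 6 unlabelled libraries (columns A to F, by rising size factor). The number in each cell is the read count and the shade its log2 after adding 1; Serpinb1c is highest with 19 reads in library F.

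Serpin promoters were mostly poor in CG dinucleotides. RefSeq (GRCm38.p6) gave the 250 bases before a start for 35 of the 40 genes, at 43 starts. The median serpin window held 2 CG dinucleotides, beside 6 over all 32851 windows. Serpine2, with 2 reads, had the most of the serpin windows given at 34, more than 96.5% of all windows. This gene was singled out after its values were seen. Of 758 genes in the table with at least as many CG, 87.6% had a mean of at least 10 and 2.51% had a mean no higher than Serpine2, beside 74.99% and 6.84% of all 11206 table genes with a window. Serpinf1, with a mean of 18674, had 2 CG. Serpinb6a had 20 at one annotated start and 2 at the other. The motif TATAAA, on either strand, was in at least 1 window of 5 of the 35 serpin genes and of 3872 of all 27025 genes with a window, and CCAAT of 11 and 10133. Among the members with a mean of at least 10 and a window, TATAAA was found in Serpinb2 alone, at both of its starts.

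The windows of Serpine2, Serpinb6a and Serpinf1 are given as examples of many and few CG at different levels, with each CG in capitals. They run 5′ to 3′ on the minus strand of GRCm38.p6, at chr1:79858666-79858915 for Serpine2, chr13:34002795-34003044 for Serpinb6a and chr11:75422624-75422873 for Serpinf1. The RefSeq starts differ from the GENCODE genes used for lengths: the Serpine2 window lies inside its GENCODE gene, which ends at 79861180, and the Serpinf1 window overlaps its own, which ends at 75422701.
Serpine2: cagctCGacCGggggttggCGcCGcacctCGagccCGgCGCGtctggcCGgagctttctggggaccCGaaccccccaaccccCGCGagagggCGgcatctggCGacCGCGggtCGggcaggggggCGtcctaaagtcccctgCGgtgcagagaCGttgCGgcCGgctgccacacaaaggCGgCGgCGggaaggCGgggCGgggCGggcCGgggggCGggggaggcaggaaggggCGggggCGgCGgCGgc
Serpinb6a: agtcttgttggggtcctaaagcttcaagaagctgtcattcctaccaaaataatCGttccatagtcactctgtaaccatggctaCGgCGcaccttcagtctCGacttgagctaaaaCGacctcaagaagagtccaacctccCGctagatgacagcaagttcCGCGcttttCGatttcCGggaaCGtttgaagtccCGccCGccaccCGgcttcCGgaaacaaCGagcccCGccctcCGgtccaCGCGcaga
Serpinf1: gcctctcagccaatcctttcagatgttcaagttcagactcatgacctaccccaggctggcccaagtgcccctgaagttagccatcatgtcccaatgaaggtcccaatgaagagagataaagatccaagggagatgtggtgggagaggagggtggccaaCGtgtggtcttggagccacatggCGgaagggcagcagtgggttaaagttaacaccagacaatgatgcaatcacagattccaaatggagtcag

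Proteases met by serpins were present in part. Of 26 listed proteases and receptors with a value, 12 had a mean of at least 10 and 9 were under 1. The genes of both plasminogen activators were present, Plau at 914 normalized counts and Plat at 529, and the urokinase receptor gene Plaur stood at 5390. Per kilobase Plau stood at 386, beside 204 for Serpinb2. Plg, the precursor of plasmin, had a mean of 0.504. The lysosomal cathepsin genes Ctsl and Ctsb were the highest of the list at 58200 and 27721. Ctsg and Gzmb, the targets of Serpinb6a and Serpinb9, had means of 0.366 and 0.874.

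Receptors that clear serpin complexes were expressed, with 9 of 10 listed genes at 10 or more. Lrp1, which takes up complexes of serpins with proteases, had 20414 normalized counts. Vtn, which encodes the plasma adhesion protein vitronectin, was the exception at 0.328. A list of 21 genes holds collagens, their enzymes and chaperones, and the retrieval receptors Kdelr1, Kdelr2 and Kdelr3 of the endoplasmic reticulum. Of these 20 reached 10, the exception being Col4a2 at 8.34. Per kilobase of all exons Serpinh1 was 2.08 times as high as Col1a1, 1.96 times as high as Col1a2 and 1.31 times as high as P4hb. Only this length was used for these pairs, and the order depends on it. Without division by length, Col1a2 at 135155 and Col1a1 at 66981 lay above Serpinh1 at 51954, and P4hb at 46419 lay below it. Of 17 other protease inhibitors 10 reached 10, with Timp2 the highest in mean at 21410. Per kilobase Serpinh1 was 1.72 times as high as Timp1 and 3.87 times as high as Timp2.

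**Figure D5:**
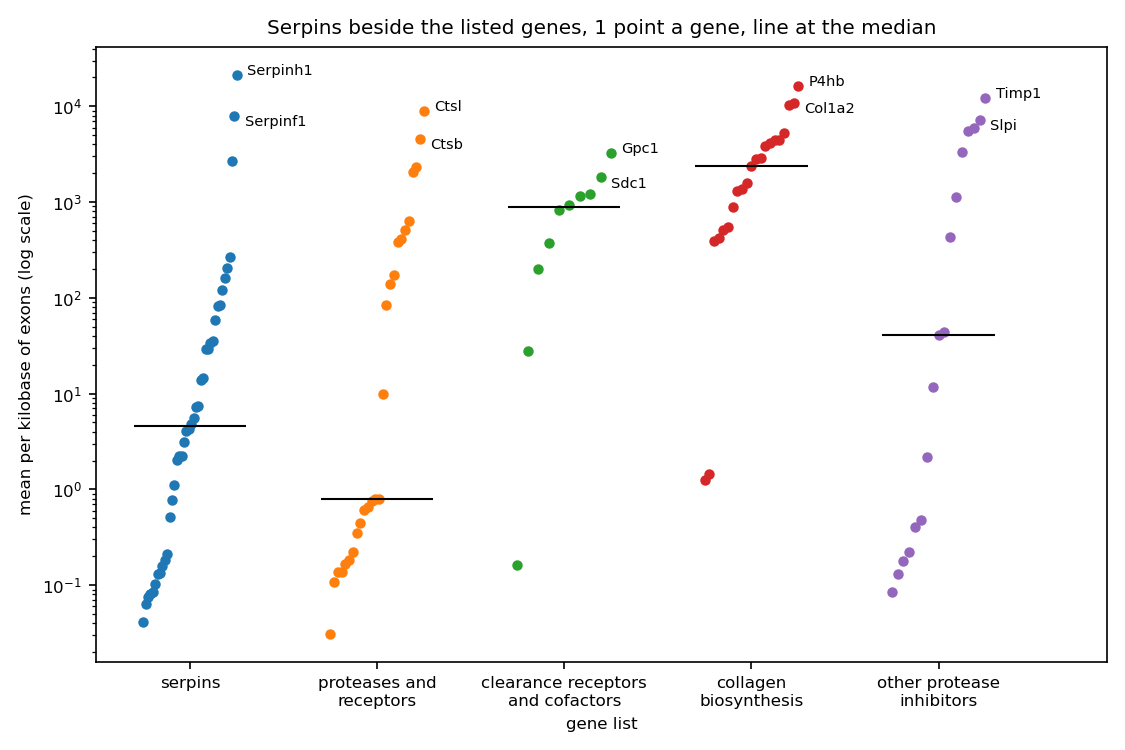
Pooled mean per kilobase of exons, on a log axis, for the serpins and 4 lists of related genes, 1 point a gene in rising order with a line at the median of each list. The 2 highest genes of each list are named. On this scale Serpinh1 lies above every gene of the 4 other lists. Without division by length, Col1a2, Col1a1 and Ctsl have higher means.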

How the data were processed

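Poly(A) RNA of 6 libraries, 3 Ms4a15 OE and 3 control, had been sequenced by the authors. Per the study's methods, reads were aligned to mm10 with STAR, counted per gene with HTSeq and normalized by the authors with DESeq2; the submitters' processing notes also list TopHat, Cufflinks and Cuffdiff. The deposited signal is the authors' mean of normalized counts over all libraries. The other 5 columns hold the authors' own comparison of Ms4a15 OE with control (fold change, its error, p-values and direction) and were not used, so the planned group test was not run. Total reads per library are unknown.

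Members and lists were chosen with earlier results of these data known. The rule found 41 genes, and 1 member is not reported here, nor counted in sums, shares and figures. Every other member of at least 10 was named, lower ones by clade, cluster or whole reads. Lengths, transcripts and positions came from GENCODE vM21. The study's methods name the UCSC knownGene annotation, so the exons counted may differ from those used for lengths. Coding-sequence identity (Biopython 1.88, global alignment) replaced the planned protein identity. Whole reads were accepted within the last printed digit. This step was checked on simulated data, with other size factors and a wider tolerance than used here. Counts cover pooled libraries only. The 100-base stretches, the 10% limit and the sequence windows were chosen after the data were seen.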

Additional observations from a re-analysis of the deposited data

How the results depend on the processing

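No paired analysis was possible because the values are pooled over all libraries; the fits with other size factors, without a filter, with a replicate block or without single replicates were not run for the same reason. The number of serpins at or above the minimum was 23 at a minimum of 5 and 18 at 20, but 10 at 100 and 40 with none, since fewer or more genes pass. Counting Agt, also known as Serpina8, gave 41 in place of 40 genes; its mean of 20.3 would make it the only clade A gene above 10. Serpinh1 held 58.7% of the summed mean of the 40 genes and 64.3% per kilobase of all exons, a change made by dividing by that length. The direction of this change may differ with another length, since Serpinb6a had 2717 per kilobase over all exons and 6707 over its longest transcript. The ratio of Serpinh1 to Serpinf1 was 2.69 over all exons, 2.24 over the longest transcript and 2.78 over coding sequence. All 10 highest genes per kilobase were also the 10 highest by longest transcript, by coding length and, tried after seeing the data, without division. With a tolerance 10 times wider, 20 of 22 low genes kept a single combination of reads; the other 2 were Serpina6 and Serpinb1c. Members with a mean of at least 10 that shared over 10% of stretches numbered 5 at 100 bases and 4 at 150, and over all 40 genes 9 and 7, an alternative chosen after seeing the data. Pooled means give no spread, so small differences in level cannot be judged.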

Other observations

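The 8 serpins with a mean between 3 and 10 had these whole reads in the unlabelled libraries A to F. Serpinb1c had 8, 4, 5, 7, 14 and 19, Serpina1e 9, 10, 6, 10, 5 and 6, Serpina11 2, 6, 7, 6, 8 and 15, and Serpina1d 2, 2, 4, 5, 13 and 10. Serpinf2 had 7, 4, 4, 5, 3 and 8, Serping1 10, 8, 0, 7, 1 and 1, Serpinb6d 8, 5, 4, 0, 4 and 6, and Serpina6 5, 3, 3, 3, 4 and 6. The libraries were not assigned to groups, and no test was made.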
